A study of Mus musculus with 4 samples.

Results

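B-1 cells with diverse receptors are peritoneal B cells that carry B-1 marker RNA but belong to no large clone and use neither of the canonical B-1 receptors for phosphatidylcholine. A cell barcode was taken as a member when its receptor data held exactly 1 IGHM heavy chain and 1 kappa chain and no other chain, when its clonotype (V gene, J gene and CDR3 nucleotides of both chains) had 5 or fewer barcodes, and when the pair was neither IGHV11-2/IGKV14-126 nor IGHV12-3/IGKV4-91. Its expression data also had to hold 2 or more UMIs (unique molecular identifiers, 1 per captured RNA molecule) over Zbtb32, Plac8, Bhlhe41 and Zcwpw1, and 0 UMIs of Fcer2a and Cr2, which mark conventional B-2 cells. This rule took 838 of 6897 barcodes in HFD and 1752 of 13227 barcodes in CD, 2590 of 20124 in all. They fell into 708 clonotypes in HFD and 1392 in CD.

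The mice were WT. HFD mice were fed a high-fat diet and CD mice chow, starting at 4 weeks of age and lasting 3 months, and CD45-positive cells of the peritoneal lavage were sorted for droplet single-cell sequencing of RNA and of B-cell receptors. The labels' treatment text names the high-fat diet for CD as well, so that chow for CD rests on the series design. Each diet had 1 expression library and 1 receptor library; how many animals gave the cells, and whether they were pooled, is not stated. No test between diets was therefore possible: the values below compare 2 libraries, and every interval is a 95% interval that covers counting error only.

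B-1 cells are long-lived B cells of the body cavities that maintain themselves by self-renewal and supply much of the natural IgM of the blood. Many arise before or shortly after birth, when the enzyme that adds non-templated bases at V(D)J junctions is little expressed, so that their heavy chain CDR3, the junction loop that contacts antigen, is often short and close to germline. B-2 cells are the recirculating follicular B cells, which respond to protein antigens with T cell help, hypermutation and class switching.

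Few receptors recurred between the diets, and their heavy chain CDR3 sequences ran from 21 to 48 nucleotides. Of the member clonotypes, 6 of 708 in HFD (0.847%, 0.312 to 1.84) and 6 of 1392 in CD (0.431%, 0.158 to 0.936) had the same V and J genes and the same CDR3 nucleotides in both chains as a clonotype of the other library. These were 7 receptors in all, because 1 was a member in HFD only and 1 in CD only. Their heavy chain CDR3 sequences are printed 5′ to 3′ from the deposited receptor tables, with capitals for the bases that lie between the consensus end of the V gene and the consensus start of the J gene.
IGHV1-47/IGHJ3 with IGKV1-110/IGKJ1: tgtgcaaggggGGggtttgcttactgg
IGHV1-55/IGHJ1 with IGKV12-89/IGKJ1: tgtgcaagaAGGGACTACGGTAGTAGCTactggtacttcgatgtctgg
IGHV10-1/IGHJ2 with IGKV1-122/IGKJ2: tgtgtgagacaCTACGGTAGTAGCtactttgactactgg
IGHV13-2/IGHJ2 with IGKV10-96/IGKJ2: tgtagtaACTGGgactactgg
IGHV5-6/IGHJ2 with IGKV10-96/IGKJ1: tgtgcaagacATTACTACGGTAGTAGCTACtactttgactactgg
IGHV5-6/IGHJ2 with IGKV19-93/IGKJ2: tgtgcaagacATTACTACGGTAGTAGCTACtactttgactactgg
IGHV7-1/IGHJ1 with IGKV15-103/IGKJ1: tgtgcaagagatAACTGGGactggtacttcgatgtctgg

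Between 2 and 20 bases separated the V and J ends in these 7 receptors. The IGHV5-6 heavy chain came with the same 45 nucleotides of CDR3 in 2 receptors that differed in the kappa chain. The longest run of these middle bases common to most of the 7 receptors was ctacggtagtagc, which lies in a long mouse D segment. On the coding strand it stood in 4 of the 7 sequences, 2 of them the identical IGHV5-6 heavy CDR3. Anywhere in the CDR3, it stood in 13.0% (10.6 to 15.7) of HFD member clonotypes and 10.6% (8.99 to 12.3) of CD member clonotypes, against 13.8% (8.26 to 21.2) of HFD and 13.7% (8.02 to 21.3) of CD B-2 type clonotypes, described below. Members and B-2 type cells thus differed in its share by less than the counting error. The IGHV1-47 receptor had 10 barcodes in HFD, past the clone limit of 5, and 4 in CD, of which 1 was a member. The IGHV1-55 receptor had 4 barcodes in HFD, 3 of them members, and 22 in CD, past the limit. For comparison, the most frequent heavy CDR3 of each of the 2 canonical receptors, shown because the rule excludes them, was found in both libraries, with 87 barcodes in HFD and 175 in CD for IGHV11-2 and 48 and 22 for IGHV12-3.
IGHV11-2/IGHJ1 with IGKV14-126: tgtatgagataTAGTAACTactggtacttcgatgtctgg
IGHV12-3/IGHJ1 with IGKV4-91: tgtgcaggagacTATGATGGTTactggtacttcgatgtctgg

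Other cells with 1 IGHM heavy chain and 1 kappa chain give the scale for the members. B-2 type cells (131 in HFD, 124 in CD) met the same receptor conditions, held 2 or more UMIs of Fcer2a and Cr2 and had none of the 4 B-1 markers. PtC-type cells (459 in HFD, 525 in CD) carried a canonical phosphatidylcholine pair with IGHM and passed the same marker gate as members. Cells of larger clones that passed the gate numbered 119 in HFD and 238 in CD. Members had a median of 6415 UMIs per barcode in HFD and 4966 in CD, B-2 type cells 4024 and 3768, and PtC-type cells 8340 and 6139. The 2 matrices held 57630074 UMIs in HFD and 73549582 in CD. Of the markers of other cells, 8 T cell markers summed to 107 CPM (counts per 1000000 summed UMIs) in HFD members and 107 CPM in CD members, and 5 plasma cell markers to 80.8 and 19.4 CPM. The 10 macrophage markers summed to 2129 CPM in HFD members and 4314 CPM in CD members. The libraries shared 30 barcodes, of which 6 were members in HFD and 6 in CD, and of the 4 with paired receptors in both libraries 0 had the same clonotype.

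The gate rested mostly on Plac8, which gave 80.4% of the 4 markers' UMIs in HFD members and 84.0% in CD members. Zbtb32, a transcriptional repressor, was found in 63.2% of HFD members and 45.4% of CD members, and Bhlhe41, a transcription factor needed for B-1a cells, in 28.6% and 14.4%. Without Plac8, 48.2% of HFD members and 28.7% of CD members would still have passed. These values chose the members and are given as a description. Just outside the threshold, 90 HFD and 223 CD barcodes had exactly 1 marker UMI, with S100a6 at 2006 and 1702 CPM. Just inside it, 53 HFD and 248 CD barcodes had exactly 2, with S100a6 at 2504 and 1966 CPM, while the barcodes with 6 or more had 5598 and 3882 CPM. Ighd stood at 333 CPM in HFD and 296 CPM in CD at 1 marker UMI and at 153 and 142 CPM at 6 or more. The weakest members therefore lay close to the barcodes left out.

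Members made up 44.7% (42.5 to 47.0) of the 1873 HFD barcodes that met all receptor conditions and 50.6% (48.9 to 52.3) of the 3461 in CD. The difference was -5.88 percentage points (-8.67 to -3.07). Its direction depended on the gate: with Plac8 left out of the marker sum, a choice made after the data were seen, HFD was higher by 7.07 points (4.89 to 9.30), and with every barcode thinned to 3000 UMIs the difference was -2.33 points (-5.40 to 0.74). The share of members therefore gives no direction for the diet; the part of the libraries' depth in it was not tested.

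Members used a broad set of V genes in both diets. They held 82 IGHV genes and 539 heavy and kappa pairs in HFD, and 86 IGHV genes and 892 pairs in CD, and the most frequent pair made up 1.98% of HFD and 0.718% of CD clonotypes. The IGHV1 family, the largest mouse VH family, gave 52.8% (49.1 to 56.6) of member clonotypes in HFD and 51.8% (49.1 to 54.5) in CD. Among B-2 type clonotypes it gave 69.1% (60.1 to 77.1) in HFD and 67.5% (58.2 to 75.9) in CD, so members were lower by 16.3 points (difference -16.3, -24.6 to -6.90) in HFD and by 15.7 points (difference -15.7, -24.0 to -6.43) in CD. Without barcodes of 3 or more macrophage or T cell UMIs, which left 92 HFD members and 15 HFD B-2 type cells, the HFD difference reversed to 6.74 points (-18.7 to 30.8). The IGHV6 family gave 9.46% and 9.56% of member clonotypes in HFD and CD, against 3.25% and 5.98% of B-2 type clonotypes. IGHV10 gave 3.53% and 5.39% of member clonotypes in HFD and CD, against 1.63% and 0.855% of B-2 type clonotypes.

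Between the diets, the V gene profiles of members were close. Of the 16 IGHV genes at 2% or more of member clonotypes in either diet, 3 were higher in HFD and 1 was lower with an interval of the difference that left out 0. IGHV1-53 was lower, at 28 of 708 clonotypes in HFD (3.95%) and 89 of 1392 in CD (6.39%). Of these 89, 7 were branches of 1 lineage and 6 of another, described below. They are counted separately here, and the difference was not repeated with related clonotypes counted once. IGHV1-26 (5.93% in HFD, 3.88% in CD), IGHV1-55 (5.65% and 3.74%) and IGHV9-3 (4.38% and 2.44%) were higher in HFD. Intervals were not adjusted for the number of genes. On the kappa side the IGKV12 family made up 10.5% (8.30 to 12.9) of HFD and 5.68% (4.52 to 7.02) of CD clonotypes, a difference of 4.78 points (2.33 to 7.48), while IGKV1 made up 19.1% and 23.6%. IGKV12-46 was paired with IGHV6-6 in 14 HFD clonotypes and 5 CD clonotypes, the most frequent pair in HFD. IGHV12-3 with a kappa chain other than IGKV4-91 occurred in 10 HFD and 8 CD clonotypes and in no B-2 type clonotype, where 0 of 123 in HFD and 0 of 117 in CD allow up to 2.44% and 2.56%. The anti-phosphorylcholine type pair IGHV7-1/IGKV7-33, known from a protective natural antibody, occurred in 1 HFD clonotype and 0 of 1392 CD clonotypes, which allows up to 0.216%.

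**Figure D1:**
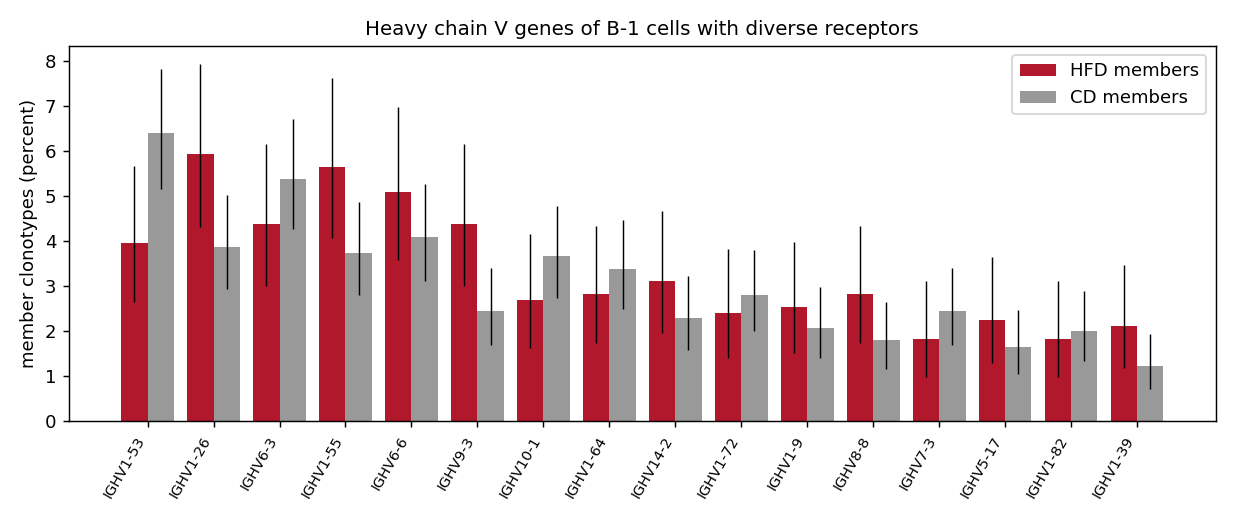
Share of member clonotypes (percent) that use each of the 16 heavy chain V genes at 2% or more in either diet, for HFD and CD members. Bars are shares of 708 and 1392 clonotypes, with related clonotypes counted separately, and lines are exact 95% intervals. IGHV1-53 stands at 3.95% in HFD and 6.39% in CD.

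Members had shorter heavy chain CDR3 sequences than B-2 type cells in both libraries. Over clonotypes, CDR3 length was 39.1 ± 8.46 nucleotides in HFD members against 42.6 ± 7.64 in HFD B-2 type cells (SD, n = 708 and 123 clonotypes), a difference of -3.56. In CD it was 38.8 ± 8.57 in members against 41.6 ± 7.56 in B-2 type cells (SD, n = 1392 and 117 clonotypes), a difference of -2.87. These differences are smaller than 1 SD between clonotypes, and the distributions overlap over most of their range. Sequences of 30 nucleotides or fewer made up 17.9% (15.2 to 21.0) of HFD and 18.9% (16.9 to 21.1) of CD member clonotypes. They made up 8.13% (3.97 to 14.4) of HFD and 10.3% (5.41 to 17.2) of CD B-2 type clonotypes. The means of HFD and CD members, 39.1 and 38.8 nucleotides, differed by far less than the spread between clonotypes.

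Mean CDR3 length was lower in members with each of the 4 IGHJ genes in both diets. The B-2 type means rest on 22 to 41 clonotypes per IGHJ gene, and no interval of these gaps was computed. The gap was widest with IGHJ3, at 36.9 ± 8.28 nucleotides in members and 42.5 ± 4.80 in B-2 type cells in HFD (SD, 183 and 25 clonotypes), and 35.7 ± 7.49 and 40.2 ± 5.05 in CD (SD, 340 and 25 clonotypes). The gap was -0.72 nucleotides with IGHJ1 in HFD and -1.07 with IGHJ2 in CD, the smallest of each diet. There the B-2 type clonotypes had SDs of 7.64 and 8.22 nucleotides (n = 24 and 33), so these small gaps give no clear direction. The bases between the V and J ends averaged 16.2 ± 6.62 in HFD members and 18.8 ± 6.57 in HFD B-2 type clonotypes, and 16.3 ± 6.70 and 17.8 ± 6.15 in CD (SD). PtC-type clonotypes had only 10.9 ± 3.07 such bases in HFD and 11.1 ± 3.13 in CD, with CDR3 lengths of 41.2 ± 1.57 and 41.2 ± 1.33 nucleotides. Members thus had more bases between the V and J ends but shorter mean CDR3 sequences, 39.1 nucleotides in HFD and 38.8 in CD. Both measures varied more in members than in PtC-type clonotypes. The count between the ends depends on the consensus ends, which took 20 nucleotides for IGHJ1 and 15 and 14 for IGHJ2 and IGHJ3.

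**Figure D2:**
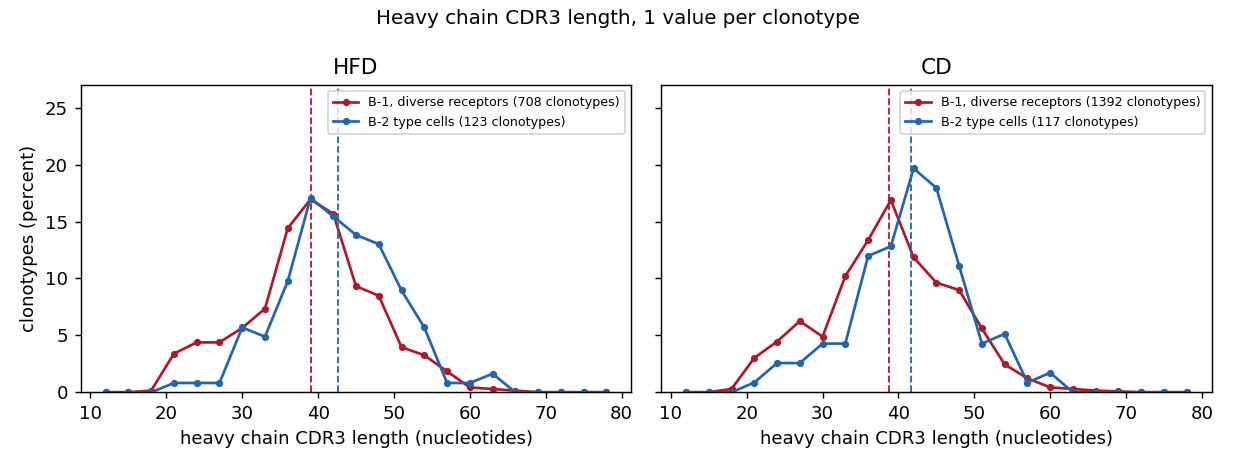
Heavy chain CDR3 length in nucleotides (x) against the percent of clonotypes (y) in HFD (left) and CD (right), for B-1 cells with diverse receptors and B-2 type cells; dashed lines are means. Member means lie at 39.1 and 38.8 nucleotides, left of the B-2 type means of 42.6 and 41.6.

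Barcodes of 1 clonotype tended to pass the gate together. In clonotypes of 2 to 5 barcodes in the matrix, a member's clone mate was also a member in 79.1% (74.9 to 83.0) of 412 ordered pairs in HFD and 75.4% (72.8 to 77.9) of 1156 pairs in CD. Members were 58.0% (53.5 to 62.5) of all barcodes of such clonotypes in HFD and 61.6% (58.9 to 64.3) in CD. Pairs within a clonotype are not independent. A member and a B-2 type cell stood in the same clonotype in 1 of 223 clonotypes in HFD and 2 of 561 in CD.

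V regions with several base differences were found among members, and mostly in CD. Somatic hypermutation, the introduction of point changes into V genes of activated B cells, was read as bases that differ from the consensus of all clonotypes with the same IGHV gene. At least 2 differences stood in 21 of 689 scored HFD member clonotypes (3.05%, 1.90 to 4.62) and in 166 of 1366 in CD (12.2%, 10.5 to 14.0), a difference of -9.10 points (-11.2 to -6.85). All scored B-2 type clonotypes, 120 in HFD and 116 in CD, had 0 differences, which allows a share of up to 2.50% and 2.59% with 2 or more, and so did all 58 HFD and 39 CD PtC-type clonotypes. Other IGHM barcodes outside these groups and outside the larger clones that passed the gate had 2 or more in 1.29% of HFD and 7.90% of CD clonotypes, so that the lower share in HFD was not limited to members. In CD, 52 member clonotypes had 8 or more differences, with a maximum of 27, against 2 in HFD, with a maximum of 14.

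**Figure D3:**
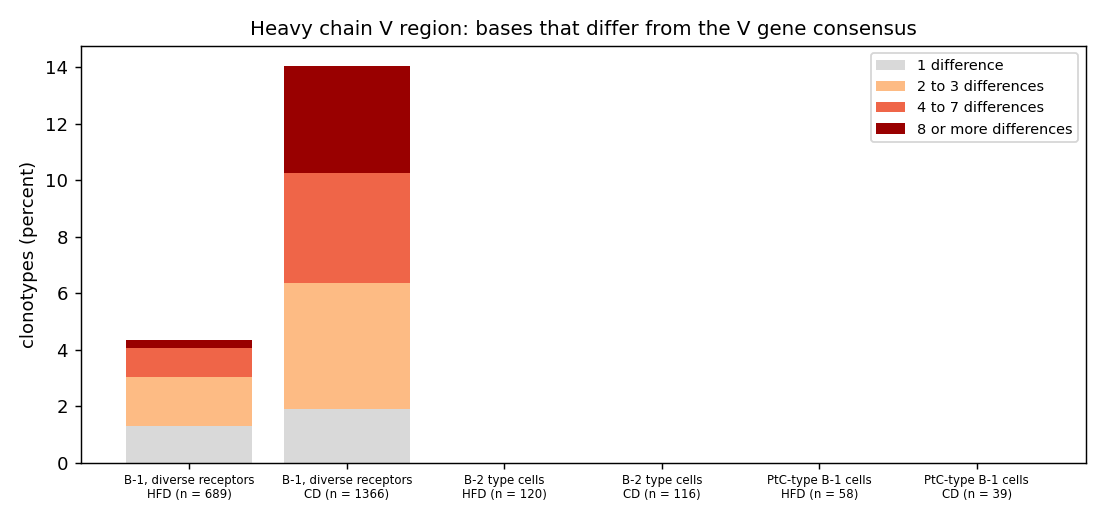
Percent of clonotypes whose heavy chain V region has 1, 2 to 3, 4 to 7 or 8 or more bases different from the V gene consensus, for members, B-2 type cells and PtC-type B-1 cells in HFD and CD; n is the number of scored clonotypes. At least 2 differences stood in 3.05% of HFD and 12.2% of CD members, and all B-2 type and PtC-type clonotypes had 0 differences.

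The differences were denser in the antigen-contacting loops. In mutated CD member clonotypes, those with 2 or more differences, 3.82% (3.38 to 4.31) of the bases of CDR1 and CDR2 differed and 1.91% (1.78 to 2.05) of the framework bases. Of the codons with a single changed base, 68.4% (65.3 to 71.4) changed the amino acid. The kappa chain had at least 1 difference in 82.3% of mutated CD clonotypes, 135 of 164 scored, but in 1.37% of unmutated ones, 16 of 1168. In HFD it had one in 15 of 21 mutated and 1 of 652 unmutated clonotypes. Mutated CD members used 46 of the 86 IGHV genes, led by IGHV1-53 with 24 of 89 clonotypes and IGHV6-3 with 20 of 75. Of the 24 IGHV1-53 clonotypes, 7 belonged to 1 lineage and 6 to another.

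Some mutated clonotypes were branches of 1 lineage. Clonotypes with the same V and J genes, equal CDR3 lengths and heavy CDR3 nucleotides that differed at 15% or fewer of the positions were taken as related. Counting every barcode, the 23 mutated HFD members belonged to 21 clonotypes in 21 lineages, and the 221 mutated CD members to 168 clonotypes in 129 lineages. Because the clone limit counts identical CDR3 sequences, 16 HFD and 79 CD members sat in lineages of more than 5 barcodes. With 1 clonotype kept per lineage the difference between diets in the mutated share was -6.48 points (-8.47 to -4.34). The 2 CD lineages with the most mutated member clonotypes were both IGHV1-53, and some of their heavy CDR3 sequences are printed 5′ to 3′, with capitals for bases that differ from the most frequent base among the lineage's member clonotypes, because they show the branching. At 1 position of the IGKV15-103 lineage, split 3 to 3, the base of the clonotype with the fewest V differences was taken.
IGHV1-53/IGHJ3 with IGKV4-55, 3 V differences: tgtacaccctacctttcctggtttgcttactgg
IGHV1-53/IGHJ3 with IGKV4-55, 4 V differences, first branch: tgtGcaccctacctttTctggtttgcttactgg
IGHV1-53/IGHJ3 with IGKV4-55, 4 V differences, other branch: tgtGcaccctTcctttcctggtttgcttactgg
IGHV1-53/IGHJ3 with IGKV4-55, 5 V differences: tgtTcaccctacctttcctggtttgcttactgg
IGHV1-53/IGHJ2 with IGKV15-103, 11 V differences: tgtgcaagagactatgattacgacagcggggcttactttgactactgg
IGHV1-53/IGHJ2 with IGKV15-103, 13 V differences: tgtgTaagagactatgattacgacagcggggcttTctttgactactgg
IGHV1-53/IGHJ2 with IGKV15-103, 19 V differences: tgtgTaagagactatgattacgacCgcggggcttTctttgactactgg

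The IGKV4-55 lineage held 8 members among 11 barcodes, with 3 to 6 V region differences, and the IGKV15-103 lineage held 6 members among 9 barcodes, with 5 to 19. Heavy contigs of IgG or IgA with the same V and J genes, equal CDR3 length and related CDR3 were found for 42 of 166 mutated CD clonotypes (25.3%, 18.9 to 32.6), against 9 of 1174 unmutated ones (0.767%, 0.351 to 1.45). In HFD they were found for 0 of 21 mutated clonotypes, which allows up to 14.3%, and for 3 of 659 unmutated ones. Branches of a lineage were counted separately in these shares, and the intervals treat them as independent. No share per lineage was taken. The receptor tables held 58 IgG or IgA heavy contigs in HFD and 312 in CD, so fewer relatives could be found in HFD.

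Mutated and unmutated members differed in RNA as well, although all carried an IGHM contig. In CD, 4106 genes were compared over all members. In mutated members 59 (1.44%) were at least 1 log2 unit higher and 7 (0.17%) at least 1 log2 unit lower. These counts include barcodes rich in macrophage RNA and are not given without them. The genes named here were chosen after their values were seen. Macrophage RNA moved with this comparison: the 10 macrophage markers summed to 8362 CPM in mutated and 3889 CPM in unmutated CD members, and 10 barcodes gave 87.0% of these UMIs in mutated members. Values are therefore given without the 14 mutated and 66 unmutated barcodes of 20 or more macrophage UMIs, after which the sums were 737 and 626 CPM. Ighg3, the IgG3 constant region, then stood at 64.1 CPM in mutated and 9.74 CPM in unmutated CD members (log2 ratio 2.72, 2.22 to 3.22), with UMIs in 23 of 207 and 49 of 1392 barcodes. Ighg2b stood at 43.1 and 4.48 CPM and Igha at 45.1 and 11.3 CPM, while Ighm did not differ beyond counting error (log2 ratio 0.03, -0.03 to 0.09). Ighg3 was also higher in mutated HFD members, at 138 and 19.5 CPM, with UMIs in 7 of 21 mutated barcodes.

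Genes of B-1 cells went both ways in mutated CD members. Without the macrophage-rich barcodes the B-1 identity list summed to 6553 CPM in mutated and 7219 CPM in unmutated ones, and of its 13 genes 7 were higher in mutated members, 5 with an interval above 0, and 6 were lower, 4 with an interval below 0. Those higher included Fcrl5, at 106 and 71.2 CPM (0.58, 0.26 to 0.88), and Spn, at 33.1 and 19.1 CPM (0.79, 0.20 to 1.34), while in HFD Fcrl5 stood at 43.0 and 69.7 CPM, from 5 UMIs in mutated members. Agbl1, a tubulin deglutamylase homologue, stood at 14.0 CPM in mutated and 46.9 CPM in unmutated members (log2 ratio -1.74, -2.63 to -0.98), Serpina3g, a protease inhibitor, at 23.0 and 91.3 CPM (-1.99, -2.66 to -1.39), and Il5ra, the interleukin receptor chain that drives B-1 growth, at 32.1 and 59.3 CPM (-0.89, -1.45 to -0.37). S100a6 stood at 2448 and 3701 CPM. Ccr7, the receptor that guides B cells to lymphoid tissue, was higher, at 381 and 213 CPM (log2 ratio 0.84). Retnla had a log2 ratio of -3.48 over all members and of 0.55 (-0.06 to 1.12) without the macrophage-rich barcodes. Of these genes only Agbl1 and Serpina3g were also lower in the 21 mutated HFD members left, from 1 and 7 UMIs. They stood at 8.60 and 60.2 CPM against 97.4 and 95.6 CPM in unmutated ones, and the Serpina3g interval held 0. S100a6 went the other way in HFD, at 7227 and 5324 CPM, and so did Ccr7, at 68.8 and 159 CPM from 8 UMIs in mutated members.

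Compared with B-2 type cells, members had higher levels of B-1 genes in both diets. Of 4073 genes, 78 (1.92%) were at least 1 log2 unit higher and 90 (2.21%) at least 1 log2 unit lower in members in both libraries. As members and B-2 type cells were chosen on 6 genes of the same barcodes, these values are a description. Macrophage markers summed to 2129 CPM in HFD members and 1556 CPM in HFD B-2 type cells, and to 4314 and 900.1 CPM in CD. Without the macrophage-rich barcodes 71 genes were higher and 94 lower, and the number tested then is not given. Of the B-1 identity list, all 9 measured genes were higher in both diets, 7 of them by at least 1 log2 unit, with a median log2 ratio of 1.43 in HFD and 1.91 in CD, against -0.19 and -0.15 over all genes. S100a6, a calcium-binding protein, stood at 5213 CPM in HFD members and 798 CPM in HFD B-2 type cells, and at 3363 and 481 CPM in CD. Without the macrophage-rich barcodes its log2 ratio was 2.80 in HFD and 2.87 in CD. Anxa2, a membrane-binding annexin, stood at 312 and 88.7 CPM in HFD and at 179.8 and 47.9 CPM in CD. Fcrl5, an inhibitory Fc receptor-like protein, stood at 69.1 and 8.87 CPM in HFD and at 71.8 and 12.5 CPM in CD.

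Tppp3, a tubulin-binding protein, was among the highest, at 369 CPM in HFD members and 15.96 CPM in HFD B-2 type cells, and at 87.2 and 2.08 CPM in CD. S100a4 stood at 377 and 35.5 CPM in HFD and 277 and 16.7 CPM in CD, and Csf2rb, the shared beta chain of the receptors for GM-CSF and related cytokines, at 68.4 and 5.32 CPM in HFD and 62.6 and 4.17 CPM in CD. The transcription factor Sox5 stood at 196 and 42.6 CPM in HFD and 124 and 8.33 CPM in CD. Plscr1, Ms4a6c, Actn1, Diras2, Agbl1, Prkar2b and Lmo7 were also higher in both diets, Agbl1 at 95.2 CPM in HFD members against 1 UMI in HFD B-2 type cells, and the last 3 had 0 UMIs in CD B-2 type cells. Retnla was among the highest 12 as well, but 10 barcodes gave 91.1% of its UMIs in HFD members and 78.96% in CD members, and without the macrophage-rich barcodes its mean log2 ratio was -0.80.

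**Figure D4:**
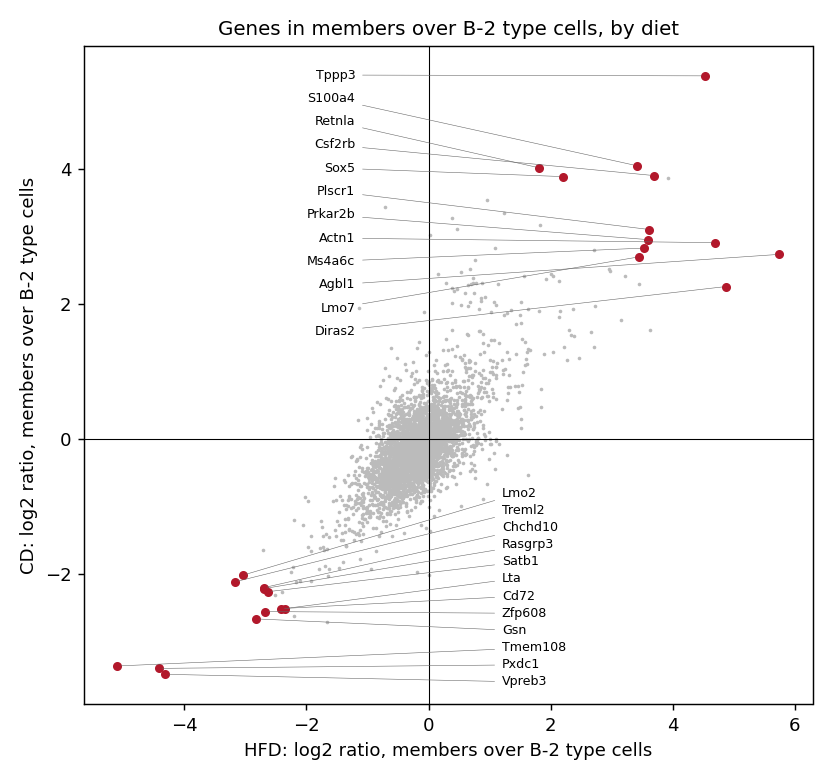
Log2 ratio of summed CPM in members over B-2 type cells, HFD on x and CD on y, for 4073 genes (gray); the 12 highest and 12 lowest by the mean of both diets are red and named. A gene at 0 UMIs in B-2 type cells is drawn at its lower bound from 3 UMIs over the group; the named genes lie far from 0 on the same side in both diets.

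Several genes of recirculating B cells were lower in members. Of the B-2 identity list, 9 of 11 measured genes were below B-2 type cells in both diets and 5 by at least 1 log2 unit. Of all genes, 52.3% were below in both diets and 2.21% by at least 1 log2 unit. Ighd, the IgD constant region, stood at 170.3 CPM in HFD members and 672 CPM in HFD B-2 type cells, and at 168 and 510.5 CPM in CD, while Ighm was higher in members, at 2800 and 1485 CPM in HFD and 2118 and 1584 CPM in CD. Bach2, a repressor that holds B cells back from the plasma cell fate, stood at 99.95 and 264 CPM in HFD and 77.0 and 217 CPM in CD. Klf2, a factor for recirculation, was at similar levels, with log2 ratios of -0.00 in HFD and 0.03 in CD. S1pr1, the receptor for exit from tissue, stood at 102.7 and 88.7 CPM in HFD and 117 and 162 CPM in CD. Vpreb3, which binds nascent immunoglobulin chains, was among the lowest genes at 12.4 and 247 CPM in HFD and 20.5 and 229 CPM in CD, together with Tmem108, Pxdc1, Gsn, Lmo2 and Satb1.

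Inhibitory molecules of the B-cell receptor were divided. Of 10 measured, 4 were higher and 5 lower than in B-2 type cells in both diets. Of all genes, 21.2% were higher and 52.3% lower in both diets, so the lower count was near that of all genes. Ptpn22, a phosphatase that restrains receptor signalling, stood at 94.1 and 31.9 CPM in HFD and 100.4 and 18.8 CPM in CD, and Siglecg, a B-1 inhibitory lectin, at 339 and 266 CPM in HFD and 299 and 242 CPM in CD. Cd72, an inhibitory coreceptor, was at 23.5 and 126 CPM in HFD and 15.7 and 89.6 CPM in CD, and Cd22 at 125 and 229 CPM in HFD and 125 and 210 CPM in CD. All 10 MHC class II pathway genes were lower in members in both diets, and none by 1 log2 unit in both. Their median was -0.44 log2 in HFD and -0.36 in CD, against -0.19 and -0.15 over all genes. Among homing genes, Itgb1, the beta chain of the VLA integrins, stood at 196 and 44.4 CPM in HFD and 162 and 45.8 CPM in CD. Ccr6 stood at 17.5 and 72.7 CPM in HFD and 14.7 and 35.4 CPM in CD.

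In the summed B-1 and B-2 identity lists members lay between PtC-type and B-2 type cells, but single genes did not all follow. Against PtC-type cells, which passed the same gate, 28 of 3680 genes (0.761%) were at least 1 log2 unit higher and 16 (0.435%) at least 1 log2 unit lower in members in both diets. Of the B-1 identity list, 10 of 11 measured genes were lower in members in both diets, with median log2 ratios of -0.41 in HFD and -0.69 in CD. Of all genes, 24.9% were lower in both diets, with medians of 0.08 and 0.07. The summed B-1 identity list came to 10507 CPM in HFD members, 12915 in HFD PtC-type cells and 3218 in HFD B-2 type cells, and in CD to 6929, 9479 and 2288. S100a6 and Vim together gave most of this sum in each group, at 5213 and 3655 CPM in HFD members. The summed B-2 identity list came to 3500, 3290 and 5456 CPM in HFD and to 3657, 3136 and 5442 CPM in CD. Fcmr, the IgM receptor, lay outside this order, at 432 CPM in HFD members and 825 CPM in HFD B-2 type cells, and at 436 and 754 CPM in CD, with PtC-type cells in between, and Ighm was highest in members in both diets. Ighd stood at 170.3 CPM in HFD members and 69.5 CPM in HFD PtC-type cells, and at 168 and 66.5 CPM in CD. Ccr7 stood at 154 and 46.1 CPM in HFD and 219 and 55.2 CPM in CD, and Bach2 was likewise higher in members than in PtC-type cells. The interferon regulatory factor Irf8 stood at 130.3 and 30.6 CPM in HFD and 158 and 43.4 CPM in CD, and the kinase Lrrk2 at 32.7 and 3.10 CPM in HFD and 37.2 and 4.99 CPM in CD.

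Genes lower in members than in PtC-type cells were led by Krt8, a keratin, at 13.7 CPM in HFD members and 59.2 CPM in HFD PtC-type cells, and at 8.89 and 65.2 CPM in CD. Ahnak2 stood at 51.8 and 218 CPM in HFD and 24.0 and 155 CPM in CD, and Adm, the vasodilator peptide adrenomedullin, at 22.7 and 72.1 CPM in HFD and 8.99 and 60.2 CPM in CD. Zcwpw1, a gate gene, was found in 14.0% of HFD and 8.68% of CD members but in 59.9% of HFD and 61.5% of CD PtC-type cells. Tppp3 was close in both groups, at 369 and 413 CPM in HFD and 87.2 and 91.2 CPM in CD.

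Surface markers used to sort B-1 subsets were sparse. Cd5, which divides B-1a from B-1b cells, had a UMI in 7.04% of HFD and 2.91% of CD members, and in 3.05% (1.97 to 4.51) of HFD and 1.86% (1.23 to 2.70) of CD members once barcodes were thinned to 3000 UMIs, with 52 HFD and 304 CD members too shallow. In thinned B-2 type cells the shares were 0% (0 to 3.69) in HFD and 2.27% (0.276 to 7.97) in CD, so that the intervals of members and B-2 type cells overlapped in both diets, and in PtC-type cells 4.86% and 6.42%. In full counts Cd5 stood at 13.9 CPM (85 UMIs) in HFD members and 1.77 CPM (1 UMI) in HFD B-2 type cells, and at 7.11 CPM (72 UMIs) and 10.4 CPM (5 UMIs) in CD. Thinned Spn (CD43) was found in 8.14% of HFD and 4.90% of CD members, and Cd9 in 23.3% of HFD and 17.3% of CD members against 12.2% and 5.68% of B-2 type cells. Itgam (CD11b), which macrophages also express, was found in 10.4% of HFD and 9.60% of CD members. The members could not be divided into B-1a and B-1b cells from these counts.

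Between the diets, the number of genes of members that differed by 1 log2 unit depended on the processing. Of 3983 genes, 15 (0.377%) were at least 1 log2 unit higher in HFD and 34 (0.854%) at least 1 log2 unit lower. Macrophage RNA moved with this comparison: the 10 macrophage markers, none at 0, summed to 2129 CPM in HFD members and 4314 CPM in CD members. Members with 3 or more macrophage UMIs were more frequent in HFD, at 88.1% against 63.4% in CD. Those with 20 or more were less frequent, at 3.10% in HFD and 4.62% in CD. Without the barcodes of 20 or more, a choice made after the data were seen, 17 of 3922 genes were higher and 13 lower. Of the genes called over all members 12 of 15 higher and 10 of 34 lower were still called. Higher genes numbered 65 without barcodes of 3 or more macrophage or T cell UMIs, which made up most members. Lower genes numbered 16 with equal weight per barcode and 20 with thinning. The number of genes tested in these alternatives is not given, so the counts cannot be read as shares. Ratios with and without the barcodes of 20 or more macrophage UMIs are in the plot of HFD over CD in members.

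Of the named genes Tppp3 had the highest ratio, at 369 CPM in HFD and 87.2 CPM in CD members (log2 ratio 2.08, 1.97 to 2.19). It was found in 47.5% of HFD and 18.8% of CD members, and in 39.8% and 13.6% after thinning to 3000 UMIs, against 6.12% and 1.14% of thinned B-2 type cells. Its log2 ratio was 2.18 (2.01 to 2.35) in PtC-type cells. Agbl1 stood at 95.2 CPM in HFD and 41.8 CPM in CD members (1.19, 1.005 to 1.37), the cytokine receptor gene Il9r at 58.0 and 21.9 CPM (1.40, 1.16 to 1.65) and the LIM protein gene Crip2 at 109 and 47.3 CPM (1.203, 1.03 to 1.38). Ptms, Marcksl1, Pard3b, Ahnak2, H2ac24 and the unnamed gene model Gm43305 were higher by 1.06 to 1.62 log2 units, and each was also higher in HFD in PtC-type cells. Slc25a20, the carnitine-acylcarnitine carrier of mitochondria, stood at 34.5 and 18.1 CPM (0.93, 0.64 to 1.22). Cpt1a, the entry enzyme of fatty acid oxidation, stood at 33.2 and 18.7 CPM (0.83, 0.54 to 1.12; 1.02 without the macrophage-rich barcodes), but the 9 measured genes of the lipid uptake and oxidation list had a median log2 ratio of 0.03, with 6 above 0, against 0.01 over all genes.

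**Figure D5:**
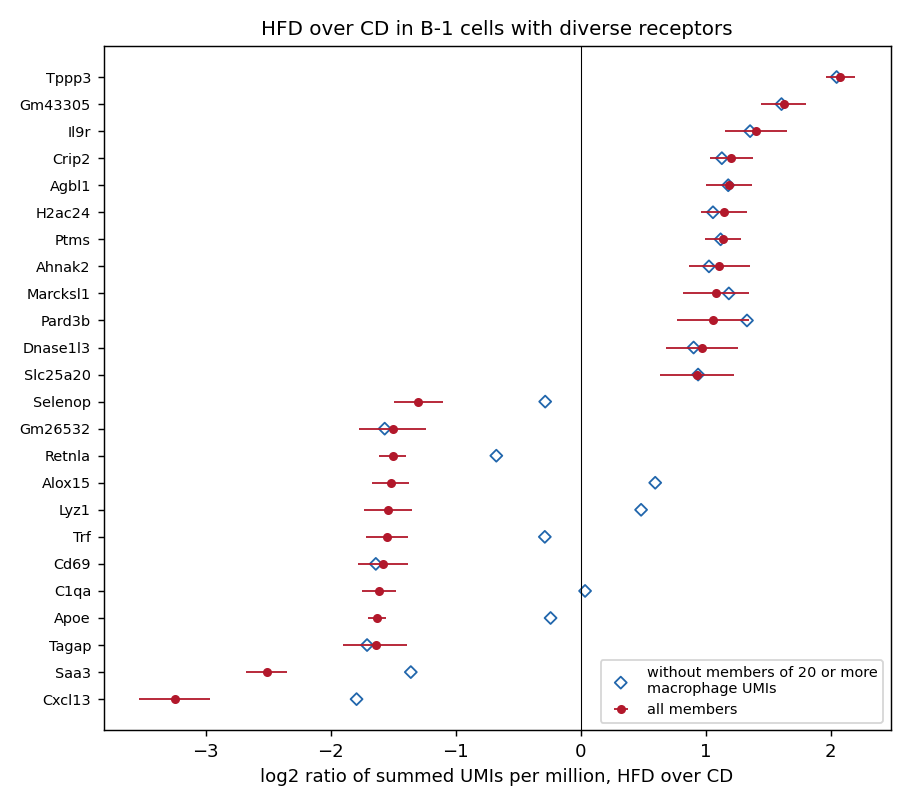
Log2 ratio of summed CPM in HFD over CD members (x) for the 12 highest and 12 lowest genes. Red points are all members with exact 95% counting intervals, and open diamonds leave out members with 20 or more macrophage UMIs; Cd69, Tagap and Gm26532 then lie between -1.71 and -1.57 while C1qa, Lyz1 and Alox15 come to lie above 0.

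Among the genes lower in HFD were some of lymphocyte activation, though the list of such genes went both ways. Cd69, an early activation protein that retains cells in tissue, stood at 39.9 CPM in HFD and 119 CPM in CD members (log2 ratio -1.58, -1.78 to -1.38), and at -1.64 without the macrophage-rich barcodes. Tagap, a GTPase-activating protein of activated lymphocytes, stood at 24.99 and 77.9 CPM (-1.64, -1.90 to -1.39), and Gadd45b at 20.4 and 41.2 CPM (-1.01, -1.31 to -0.72). Myc stood at 65.0 and 122 CPM (-0.90, -1.07 to -0.74). Cd69 and Tagap were lower in HFD also in B-2 type cells (-1.40 and -1.23) and in PtC-type cells (-1.43 and -1.75). Of the 14 measured genes of the immediate early and activation list, 9 were below 0 and 3 were at least 1 log2 unit lower. Of all genes, 46.9% were below 0 and 0.854% at least 1 log2 unit lower. Fos (-0.38), Jun (-0.30) and Zfp36 (-0.21) were lower by less. Junb (0.02), Nfkbia (-0.01) and Cd83 (-0.03) were near 0. Dusp2 (0.44, 0.19 to 0.68), Cd44 (0.33), Cd86 (0.27) and Ier2 (0.14) were higher in HFD with intervals above 0. Ankrd37, Rsrp1, Cpm and Ly6k were also at least 1 log2 unit lower with and without the macrophage-rich barcodes.

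Chaperones were lower as groups by less than 1 log2 unit. All 10 measured heat shock genes were below 0, against 46.9% of all genes, with a median log2 ratio of -0.46. Dnaja1, a co-chaperone, stood at 70.7 CPM in HFD and 127 CPM in CD members (-0.85, -1.01 to -0.69), and Hspa8, the constitutive HSP70, at 858 and 1261 CPM (-0.56, -0.60 to -0.51). The lower level was not limited to members: Hspa8 stood at 877 and 1393 CPM in PtC-type cells and at 772 and 1273 CPM in B-2 type cells. Each of these heat shock genes was lower in HFD in PtC-type cells, while Hsp90ab1 and Hspe1 were not lower in B-2 type cells. Of 13 genes of the unfolded protein response, 12 were below 0, with a median of -0.32. Hspa5, the main chaperone of the endoplasmic reticulum, stood at 155 and 259.9 CPM (-0.74, -0.85 to -0.64). B-1 identity genes went the other way, with 8 of 10 above 0, against 53.1% of all genes, and a median of 0.47. S100a6 stood at 5213 CPM in HFD and 3363 CPM in CD members and Anxa2 at 312 and 179.8 CPM. The summed B-1 identity list was also higher in HFD in PtC-type cells, at 12915 and 9479 CPM, and in B-2 type cells, at 3218 and 2288 CPM. These sums rest mostly on S100a6 and Vim.

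Cxcl13, the chemokine that draws B cells through Cxcr5 and is made by peritoneal macrophages, stood at 18.5 CPM in HFD and 175 CPM in CD members (log2 ratio -3.24), and at 12.7 and 43.9 CPM without the macrophage-rich barcodes (-1.79, -2.17 to -1.43). In barcodes with 50 or more macrophage UMIs and no receptor, 1537 in HFD and 2328 in CD, it stood at 497 and 3209 CPM. Saa3, an acute-phase protein, stood at 56.7 and 324 CPM in members and at 1730 and 5307 CPM in those macrophage barcodes. Apoe, C1qa, Trf, Lyz1, Alox15, Retnla and Selenop had log2 ratios between -1.63 and -1.30 over all members, but without the macrophage-rich barcodes their log2 ratios ran between -0.68 and 0.60, and those of C1qa, Lyz1 and Alox15 were above 0. With those barcodes left out Apoe still stood at 204 and 241 CPM; Slpi, Pf4, Cfp and Fn1, which macrophages express, then came to be at least 1 log2 unit higher in HFD members (1.12 to 1.599). Of all members, 88.1% in HFD and 63.4% in CD had 3 or more macrophage UMIs. The part of macrophage RNA in the remaining differences was not tested. Cxcr5 itself stood at 158 CPM in HFD and 223 CPM in CD members (-0.50, -0.61 to -0.39), and Ccr7 at 154 and 219 CPM (-0.51, -0.63 to -0.40).

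The medians of several other groups were near 0, and 53.1% of all genes were above 0. Of 11 glycolysis genes 2 were above 0, with a median log2 ratio of -0.10, and of 7 interferon response genes 2 were above 0, with a median of -0.03. BCR signalling genes had a median of 0.05 over 16 genes, MHC class II genes 0.10 over 10 genes. Of 8 measured genes of antibody secretion 5 were above and 3 below 0, with a median of 0.05. Irf4, a factor of plasma cell differentiation, stood at 27.3 CPM in HFD and 43.6 CPM in CD members (-0.68, -0.94 to -0.42), and Mzb1, a protein of antibody assembly, at 907 and 897 CPM. Cd274, the checkpoint ligand PD-L1, stood at 59.6 CPM in HFD and 35.7 CPM in CD members (0.74, 0.53 to 0.95) and Lgals1, a galectin, at 304 and 185 CPM (0.71, 0.62 to 0.81). The 4 measured genes of the regulatory B cell list had 3 above 0 and a median of 0.56.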

How the data were processed

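Peritoneal CD45-sorted cells of HFD and CD mice were measured by droplet RNA sequencing (labelled as a 3' kit) and receptor sequencing, 1 library of each kind per diet. The deposited matrices hold counts of UMIs per gene and barcode without normalization, per the file headers written by Cell Ranger 8.0.1. Per the submitters' processing notes, build mm39, Seurat 4.3.0 and Cell Ranger 6.0.1 were used; cell calling settings are not given in the sources used here. The receptor tables list each contig's UMI count as deposited, with V, J and constant gene names and nucleotides.

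Members and gene lists were chosen with earlier results of these data known. No cell filter was applied, doublets were not called, and barcodes of mixed content remain. UMIs were summed per group and library and scaled to 1000000 UMIs of the sum. Genes with 50 UMIs over both sums and 30 CPM in the higher one were compared, without receptor segments and the 6 gate genes. A gene is called at 1 log2 unit. Log2 ratios carry exact conditional Poisson intervals, shares Clopper-Pearson and differences Newcombe intervals; no p-value is given, because barcodes are not replicates.

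Genes named were the 12 highest and 12 lowest ratios (8 against PtC-type cells) among genes found in 10% of the members of the higher library, up to 4 per list of largest diet ratio, V genes at 2% of clonotypes, and fixed B-1 markers; Cpt1a, Cd274, Fcrl5, Siglecg, Itgb1 and others outside that rule were picked after their values were seen. V region consensus used V genes with 10 or more clonotypes of both diets, in place of germline sequences, so an allele of 1 diet could be read as a difference. CDR3 ends used the bases shared by 70% of clonotypes of a V gene and 50% of a J gene. The calculation was tested on simulated counts. Python 3.11.15, numpy 2.4.6, scipy 1.17.1, pandas 2.3.3 and matplotlib 3.10.9 were used. Alternatives were other gates, clone limits, filters, weights and units; those on Plac8, macrophage RNA, lineages, contig depth and mutated clonotypes were added after the data were seen. Some single genes are not reported here.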

Additional observations from a re-analysis of the deposited data

How the results depend on the processing

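Of 147 alternative values of the 14 main results, 118 kept their direction and moved little, 27 moved and 2 reversed. The HFD minus CD member share was -1.54 points with the gate at 3 UMIs and -2.33 with thinning, and reversed to 7.07 without Plac8. Genes lower in HFD numbered 20 with thinning, 16 with equal weight per barcode and 13 without macrophage-rich barcodes. Leaving out every barcode with 3 or more macrophage or T cell UMIs kept 92 HFD and 617 CD members and 15 HFD and 49 CD B-2 type cells: 65 genes were higher in HFD members, 27 higher and 15 lower than in B-2 type cells, 16 higher and 8 lower than in PtC-type cells, clone mates passed in 100% and 63.9%, and the IGHV1 difference in HFD reversed to 6.74 points (-18.7 to 30.8); the cause was not tested. A CPM total without immunoglobulin, mitochondrial and ribosomal protein genes gave 142 genes higher than in B-2 type cells, and 47 higher and 27 lower than in PtC-type cells. A filter of 20 UMIs with no CPM floor also admits sparser genes. It gave 219 higher and 259 lower in HFD, 232 and 222 against B-2 type cells, and 164 and 115 against PtC-type cells. The number of genes tested can differ between these alternatives and is not given here, so the counts cannot be read as shares. Without Plac8, 13 genes were higher than in PtC-type cells. Clone mates in CD passed in 80.5%, 71.4% and 79.3% with gates of 1 and 3 UMIs and with thinning. The mutated share differed by -6.84 points in clonotypes of 1 barcode and -6.48 with 1 clonotype per lineage. Over 10 alternatives the CDR3 difference lay between -4.22 and -2.63 nucleotides in HFD and -3.48 and -2.58 in CD. Of 792 values of single named genes, 762 kept their side, 22 fell below 1 log2 unit and 8 reversed. With 3 or more macrophage or T cell UMIs left out the reversed log2 ratios were -0.11 (Dnase1l3), 0.11 (Apoe) and 0.31 (Lyz1) for HFD over CD and -0.89 for Retnla in members over B-2 type cells; with macrophage-rich barcodes left out they were 0.035 (C1qa), 0.48 (Lyz1), 0.60 (Alox15) and -0.80 (Retnla, members over B-2 type cells). Clonotypes of 1 barcode have no clone mates, so that alternative gives no value for them. No paired analysis was possible because each diet has 1 library and no replicate number. Depth limits sparse genes such as Cd5, and differences between mice are not in any interval.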

Other observations

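Most Jchain RNA in HFD members came from a few barcodes, unlike Mzb1 of the same antibody secretion list, which 96.1% of them held. Jchain, the joining chain of secreted IgM, had 333 UMIs in HFD members and 17 in CD members, but it was found in 18 of 838 and 16 of 1752 barcodes, and 10 barcodes gave 97.6% of the HFD UMIs. Ly6c2 had 242 and 76 UMIs, in 41 and 33 barcodes. The neutrophil genes S100a8, S100a9 and Retnlg had 1207, 1362 and 472 UMIs in HFD members, of which 1 barcode each held 99.3%, 99.9% and 99.6%. All 5 genes were called higher in HFD, and all are outside the rule for named genes because fewer than 10% of members held them.

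Heavy CDR3 length did not separate members with and without a Cd5 UMI in barcodes thinned to 3000 UMIs. It was 39.2 ± 8.84 nucleotides in 24 HFD clonotypes with Cd5 against 39.1 ± 8.47 in 653 without (SD). In CD it was 40.3 ± 8.17 in 27 clonotypes with Cd5 against 38.6 ± 8.53 in 1210 without (SD), a gap smaller than the spread between clonotypes.

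The share of mutated clonotypes was lowest among members with 6 or more marker UMIs, in HFD only slightly below those with exactly 2. Among members with 6 or more marker UMIs it was 1.78% in HFD and 9.69% in CD, while among those with 2 to 5 it ran between 1.89% and 9.43% in HFD and between 14.0% and 20.4% in CD. The HFD values rest on few clonotypes, 21 in all with 2 or more differences. The marker UMIs also chose the members, so that these values are a description. Barcodes with 6 or more were deeper, with a median of 7662 UMIs in HFD and 6653 in CD, against 3760 and 3348 at exactly 2. The part of depth was not tested.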
